A study of Mus musculus with 4 samples.

Results

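The clustered histone genes were the genes of the deposited table whose symbol had the older form of a histone gene in one of the Hist1, Hist2, Hist3 and Hist4 clusters. The rule selected 70 of 38713 genes. Of these, 6 encoded the linker histone H1, 20 encoded H2A, 19 encoded H2B, 12 encoded H3 and 13 encoded H4. By symbol, 56 of them belonged to Hist1 on chromosome 13, 10 to Hist2 on chromosome 3, 3 to Hist3 on chromosome 11 and 1 to Hist4 on chromosome 6. The Hist1 cluster itself held 55, as Hist1h2al (chr13:51202727-51203065) lay outside the span of the others. The annotation classed 3 of the 70 (Hist1h2aj, Hist1h2al and Hist3h2bb-ps) as pseudogenes.

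RNA was sequenced from 4 cultured mouse (C57BL/6) mammary tumor cell lines, with 1 library per line and each line taken from a separate tumor. The 2 JNK_WT lines (genotype p53-/-, replicates 1 and 2) came from mice with Wap-Cre+/- and floxed alleles of Trp53 (LoxP/LoxP). The 2 JNK_KO lines (genotype p53-/- JNK-/-, replicates 1 and 3) came from mice that also had both alleles of Mapk8 and of Mapk9 floxed. Loss of Trp53, the gene for p53, was therefore common to all 4 lines, and loss of Mapk8 and Mapk9, which encode JNK1 and JNK2, separated the groups. The Wap promoter drives Cre in secretory luminal cells of the mammary gland and is induced by lactation, and the mice were parous. Levels are in FPKM, that is, fragments scaled by transcript length and by the mapped fragments of the library.

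Histones package DNA. A pair each of H2A, H2B, H3 and H4 forms the protein core of the nucleosome, and H1 binds the linker DNA between nucleosomes. Most clustered histone genes lack introns and are transcribed mainly during S phase, when new DNA must be packaged, and their mRNAs are unusual in ending in a conserved stem-loop, bound by the stem-loop binding protein SLBP, in place of a poly(A) tail. Some of these genes can also give longer polyadenylated transcripts, and replacement histones such as H3.3 are made outside S phase from ordinary polyadenylated mRNAs of genes elsewhere in the genome.

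The stem-loop is shown first because it marks the kind of RNA end these genes are known for. The sequences were read from the longest GENCODE M21 transcript of each gene on GRCm38, in the sense of the transcript and with T for U. The pattern searched, in capitals below, had the arms GGNNCT and AGNNCC around the loop TNTN (N is any base). It was found in the longest transcript of 45 of 70 members (64.3%) and of 0.311% of 55341 annotated genes. The genes shown are the most abundant H1 and H4 gene (Hist1h1c and Hist1h4i), the H4 gene Hist1h4d, the H2A gene Hist3h2a, and an H3 gene with another loop (Hist1h3e) and an H4 gene with another stem (Hist1h4b).
Hist1h1c, chr13:23739507-23739532, plus strand: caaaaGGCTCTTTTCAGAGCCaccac
Hist3h2a, chr11:58955167-58955192, plus strand: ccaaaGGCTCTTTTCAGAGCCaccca
Hist1h3e, chr13:23561898-23561923, minus strand: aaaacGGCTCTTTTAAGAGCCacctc
Hist1h4d, chr13:23581945-23581970, plus strand: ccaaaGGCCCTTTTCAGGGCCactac
Hist1h4i, chr13:22040961-22040986, minus strand: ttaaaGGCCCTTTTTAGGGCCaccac
Hist1h4b, chr13:23757361-23757386, plus strand: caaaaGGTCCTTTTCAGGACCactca
The form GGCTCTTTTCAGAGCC stood in 25 genes of the H1, H2A, H2B and H3 types. The 12 H4 genes with a match had other stems, with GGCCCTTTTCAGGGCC in 7 of them. The pattern lay within the model rather than at its end in many genes: 23 models ran on for more than 100 bases after it, by 840 bases in Hist1h1c and by 1643 bases in Hist3h2a.

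Poly(A) signals were found in a smaller share of the models than among genes at large. The hexamer AATAAA or ATTAAA was found within the last 50 bases of the longest transcript in 16 of 70 members (22.9%), against 38.4% of all annotated genes. The 25 members with no match to the stem-loop pattern had a median model of 405 bases, against 483.5 and 1249 bases for those that ended within 100 bases of the pattern or ran on further. The shortest of the 25 had 312 bases. A model that leaves out the end of the RNA can show neither the stem-loop nor a signal. Both shares therefore describe the annotated models and not the RNA ends.

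Promoters were compared next, since many of these genes lie head to head. RefSeq promoter windows (250 bases before to 50 after a start, GRCm38.p6) were matched to 59 members. The TATA sequence TATAAA, searched on both strands, was in 57.6% of them and in 13.6% of 32851 promoters of all genes. The sequence CCAAT was in 84.7% against 37.4%, and the octamer ATTTGCAT in 13 of the 59 promoters against 1.74% of all. The motifs differed by type. CCAAT was present in all 5 H1, 16 H2A, 16 H2B and 10 H3 promoters but in 3 of 12 H4 promoters, and the octamer was found in 7 H2A and 6 H2B promoters and in no H1, H3 or H4 promoter. These matches are a description of letters in the windows and were not tested against the levels.

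There were 15 head-to-head pairs with less than 1000 bases between their starts, and most joined an H2A gene with an H2B gene. The stretches between a pair are shown for Hist1h2ac with Hist1h2bc, which had unequal levels, and for Hist2h2ac with Hist2h2be. Capitals mark the 3 motifs, on either strand, and the sequence is read on the minus strand, toward the H2A gene. The first covers 239 of the 250 bases between its genes.
Between Hist1h2ac and Hist1h2bc, chr13:23683960-23684198: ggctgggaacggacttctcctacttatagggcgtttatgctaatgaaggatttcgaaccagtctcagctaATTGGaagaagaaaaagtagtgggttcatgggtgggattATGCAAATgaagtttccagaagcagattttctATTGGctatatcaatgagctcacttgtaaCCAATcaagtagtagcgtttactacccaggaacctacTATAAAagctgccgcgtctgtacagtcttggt
Between Hist2h2ac and Hist2h2be, chr3:96220881-96221118: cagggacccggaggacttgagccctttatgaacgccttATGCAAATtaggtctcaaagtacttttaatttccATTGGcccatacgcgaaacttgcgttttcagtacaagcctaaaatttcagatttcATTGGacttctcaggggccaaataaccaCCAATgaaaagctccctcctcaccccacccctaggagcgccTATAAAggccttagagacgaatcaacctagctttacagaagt
Both stretches held CCAAT, the octamer and TATAAA, and in both pairs the H2B gene had the higher level. This was so in 9 of the 14 pairs of an H2A with an H2B gene, and the H2A gene was higher in 5, as in Hist1h2ap over Hist1h2br (15.8 times) and Hist1h2ak over Hist1h2bn (4.14 times). The counts include pairs with the pseudogenes Hist1h2aj and Hist3h2bb-ps and with Hist1h2bq, which was listed at 0. Hist1h2br averaged just 0.0286 FPKM. Hist1h2bc averaged 14.7 FPKM over the 4 libraries and Hist1h2ac 0.212 FPKM, a ratio of 69.6. Hist2h2be averaged 1.09 FPKM and Hist2h2ac 0.309 FPKM, a ratio of 3.53. The pair of Hist1h2an with Hist1h2bp averaged 0.110 FPKM each.

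The whole table sets the scale. FPKM summed to between 775960 and 921595 per library, and the steps of 1 read in low values gave depths, relative to JNK_KO replicate 1, of 1.06 and 1.27 in JNK_WT replicates 1 and 2 and of 1.41 in JNK_KO replicate 3. Mapk8 was at 23.9 and 19.1 FPKM in JNK_WT against 4.30 and 4.27 FPKM in JNK_KO, Mapk9 at 29.7 and 24.3 against 12.6 and 8.66 FPKM, and Trp53 at 1.55 and 4.15 against 5.72 and 4.28 FPKM. Values of a whole gene do not single out its deleted exons. All 4 luminal epithelial markers were at 58.4 FPKM or more in every library (summed 2992 and 2061 against 872 and 1728 FPKM). The leukocyte list summed to 20.1 and 3.22 FPKM in JNK_WT and 2.74 and 8.53 FPKM in JNK_KO, nearly all of it Cd68, with Ptprc at 0.0134 FPKM or less, and the listed endothelial, adipocyte and erythroid markers did not exceed 0.431 FPKM. The fibroblast list summed to 11.6 and 1.33 FPKM in JNK_WT and 106 and 173 FPKM in JNK_KO, with Col1a2 at 10.3 FPKM in JNK_WT replicate 1, Dcn at 79.7 and 162 FPKM and Pdgfra at 24.7 and 7.82 FPKM in JNK_KO, and Col1a1 at 0.527 FPKM or less. The part of other cell types in the histone levels was not tested. Basal markers (Krt5, Krt14 and Trp63) summed to 527 and 320 FPKM in JNK_WT replicate 2 and JNK_KO replicate 3. In JNK_WT replicate 1 and JNK_KO replicate 1 they summed to 7.44 and 28.0 FPKM. Krt14 made up most of every sum, with 443 FPKM in JNK_WT replicate 2 and 313 FPKM in JNK_KO replicate 3. These 2 libraries differed in Krt5, as JNK_WT replicate 2 alone had more than traces of it (61.9 FPKM). All others, JNK_KO replicate 3 included, had 0.205 FPKM of Krt5 or less. For Trp63 the values were 21.9 FPKM in JNK_WT replicate 2, 6.58 FPKM in JNK_KO replicate 3 and at most 1.16 FPKM elsewhere.

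The clustered histone genes were a very small fraction of the measured RNA. Summed over all 70, JNK_WT replicate 1 had 47.7 FPKM and replicate 2 had 36.0 FPKM, and JNK_KO replicate 1 had 96.6 FPKM and replicate 3 had 53.8 FPKM. This was between 0.00427% and 0.0105% of the table. The mean level of a member over the 4 libraries had a median of 0.288 FPKM and was below 1 FPKM for 61 of the 70. A total of 5 members, Hist1h1t, Hist1h2aj, Hist1h2al, Hist1h2bq and Hist2h2aa1, were listed at 0 in every library. By comparison, the replacement histone gene H3f3b, which encodes H3.3, was at 458 to 1047 FPKM. Whether the RNA was selected for poly(A) tails is not given in the sources used here.

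The sum was 41.8 ± 8.29 FPKM in JNK_WT and 75.2 ± 30.2 FPKM in JNK_KO (SD, n = 2 each), a ratio of 1.80. The groups did not overlap. With 2 libraries per group the smallest p an exact permutation test can give is 0.333, so that test cannot reach 0.05 for this sum. Much of the sum came from 2 genes, Hist1h1c (chr13:23738808-23740367, plus strand) and Hist1h2bc (chr13:23684199-23692908, plus strand), which held 59.8% and 24.0% of it in JNK_WT replicates 1 and 2 but 33.2% and 60.7% in replicates 1 and 3 of JNK_KO. The remaining 68 genes summed to 19.2 and 27.4 FPKM in JNK_WT and to 64.5 and 21.1 FPKM in JNK_KO. For them the groups overlapped, and JNK_KO replicate 1 was 2.36 times the highest of the other 3 libraries. In bulk RNA, fewer cells that make a transcript and less of it per cell cannot be told apart.

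**Figure D1:**
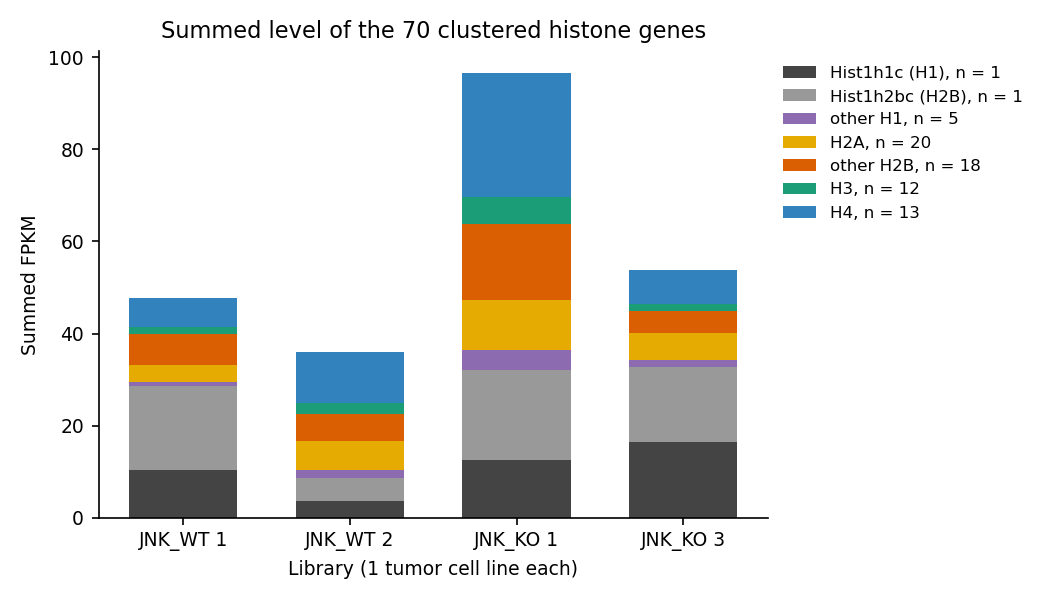
Summed FPKM of the 70 clustered histone genes in each of the 4 libraries (bars from 0), divided by histone type with Hist1h1c and Hist1h2bc drawn apart. JNK_KO replicate 1 reaches 96.6 FPKM, with H4 genes at 27.0 FPKM against at most 11.1 FPKM elsewhere, while Hist1h1c and Hist1h2bc together are lowest in JNK_WT replicate 2 (8.62 FPKM).

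The library that stood apart was JNK_KO replicate 1. It had the highest level of 54 of the 65 members that were above 0 in any library (83.1%), whereas it was the highest for 27.7% of all genes above 0 and for 30.8% of those that did not pass the filter on low values described below. All 12 H3 and all 13 H4 genes were highest there, as were 13 of 18 H2B, 12 of 17 H2A and 4 of 5 H1 genes. By cluster these were 46 of 52 Hist1 genes, 7 of 9 Hist2 genes, the Hist4 gene and none of the 3 Hist3 genes. The number of members at 1 FPKM or more was 7, 8, 22 and 5 in JNK_WT replicates 1 and 2 and JNK_KO replicates 1 and 3.

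The other JNK_KO line did not share this. The median ratio of JNK_KO replicate 1 to JNK_KO replicate 3 was 3.47 over the 62 members above 0 in both, with 58 higher in replicate 1, beside a median of 1.03 over all genes. JNK_KO replicate 3 stood at a median of 0.968 times JNK_WT replicate 1 and 0.812 times JNK_WT replicate 2. When JNK_KO replicate 1 was set aside, JNK_WT replicate 2 was highest for 33 of 65 members (30.2% of all genes above 0), JNK_WT replicate 1 for 20 (35.9%) and JNK_KO replicate 3 for 12 (33.9%). JNK_KO replicate 1 stood at 3.32 times JNK_WT replicate 1 (57 members above 0 in both) and 2.58 times JNK_WT replicate 2 (61 members). Over all members the median gap to JNK_KO replicate 3 was thus the widest, but these medians cover different genes. The ratio to JNK_WT replicate 1 was larger than that to JNK_KO replicate 3 for H1 (4.01 against 2.40), H2B (2.76 against 2.52) and H4 (3.94 against 3.69). It was smaller for H2A and H3. With 1 library per line, the tumor, the culture and the library cannot be told apart.

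**Figure D2:**
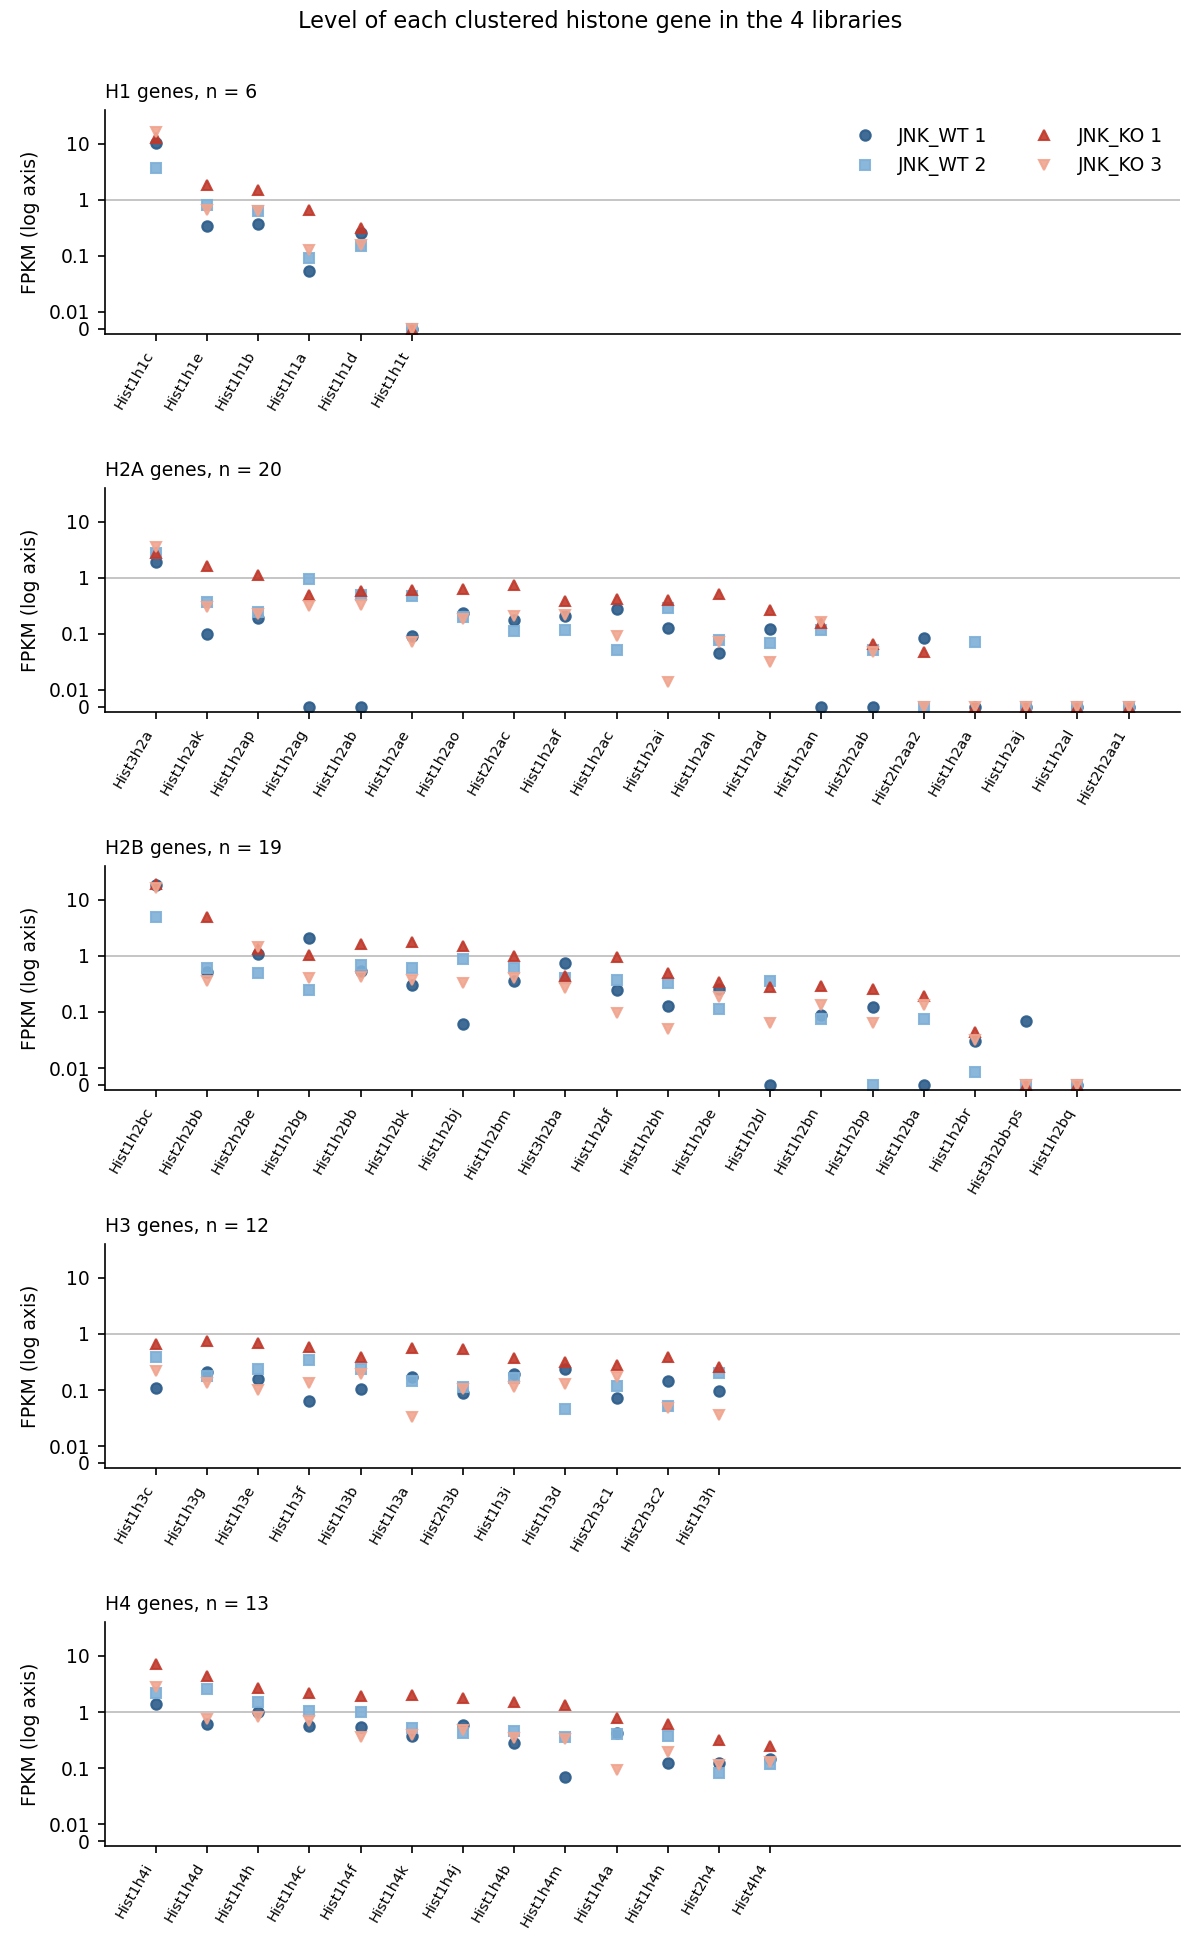
FPKM of each of the 70 clustered histone genes (log axis, values of 0 drawn at the bottom) in the 4 libraries, by histone type and in order of mean level. The red upward triangles of JNK_KO replicate 1 lie on top for all H3 and H4 genes and for most others. Hist1h1c, Hist3h2a, Hist2h2be and Hist1h2bg are among the exceptions.

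Among the linker histones, Hist1h1c, which encodes H1.2, was the most abundant. Its level was 10.3 FPKM in replicate 1 and 3.65 FPKM in replicate 2 of JNK_WT, against 12.5 FPKM in replicate 1 and 16.4 FPKM in replicate 3 of JNK_KO. The groups did not overlap, and JNK_WT replicate 2 was well below the rest. Hist1h1e, encoding H1.4, was at 0.339, 0.799, 1.85 and 0.671 FPKM in the same order, and Hist1h1b, encoding H1.5, at 0.374, 0.638, 1.497 and 0.624 FPKM. These followed the common pattern with JNK_KO replicate 1 on top, although the annotation of Hist1h1e overlaps that of Hist1h2be on the same strand. The testis H1 gene Hist1h1t was listed at 0 throughout, and the other germ cell genes were close to it, with Hist1h2aa at 0.0720 FPKM in JNK_WT replicate 2 alone and Hist1h2ba at up to 0.190 FPKM.

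The H2A gene with the highest mean was Hist3h2a, at 1.92 and 2.75 FPKM in JNK_WT and 2.81 and 3.62 FPKM in JNK_KO. The groups did not overlap, and JNK_KO replicate 3 was the highest. Its annotation overlaps Trim17 on the same strand, so reads of the 2 genes may be shared. Hist1h2ak was at 0.0988 and 0.378 FPKM in JNK_WT and at 1.63 and 0.307 FPKM in JNK_KO, and Hist1h2ap at 0.196, 0.250, 1.14 and 0.229 FPKM. Both were high in JNK_KO replicate 1 alone. All other H2A genes averaged 0.440 FPKM or less.

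Hist1h2bc, an H2B gene with a spliced transcript model of 1156 bases in 2 exons, had the highest mean of all members. It was at 18.2 and 4.97 FPKM in JNK_WT and at 19.5 and 16.3 FPKM in JNK_KO. The 3 other lines were thus close and JNK_WT replicate 2 was low, as for Hist1h1c. Hist2h2be, whose model runs to 2620 bases and ends at a poly(A) signal, was at 1.10 and 0.494 FPKM against 1.30 and 1.47 FPKM and showed the same order of the JNK_WT lines. Hist2h2bb was at 0.521 and 0.618 FPKM in JNK_WT, at 5.03 FPKM in JNK_KO replicate 1 and at 0.353 FPKM in JNK_KO replicate 3. Every 40-base stretch of its model also occurs in another annotated gene, counting the predicted genes Gm20628 and Gm42743 that overlap it. Hist1h2bg went another way, with 2.08 FPKM in JNK_WT replicate 1 but 0.243 FPKM in JNK_WT replicate 2, 1.03 FPKM in JNK_KO replicate 1 and 0.408 FPKM in JNK_KO replicate 3.

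H3 genes were low in every library. The 3 highest means belonged to Hist1h3c (0.349 FPKM), Hist1h3g (0.321 FPKM) and Hist1h3e (0.294 FPKM), and no H3 value exceeded the 0.755 FPKM of Hist1h3g in JNK_KO replicate 1. Summed over 12 genes, H3 was at 1.65 and 2.24 FPKM in JNK_WT and at 5.81 and 1.41 FPKM in JNK_KO. The H3 sum of JNK_KO replicate 1 was 2.59 times the highest of the others, and JNK_KO replicate 3 was the lowest of the 4.

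H4 genes had the highest median of the 5 types for the mean over libraries, 0.807 FPKM. In single libraries the H4 median was 1.75 FPKM in JNK_KO replicate 1 and 0.364 to 0.467 FPKM in the others. Their sum was 6.25 and 11.1 FPKM in JNK_WT and 27.0 and 7.46 FPKM in JNK_KO. Hist1h4i (chr13:22040636-22041362, minus strand) led with 1.40 and 2.21 FPKM in JNK_WT and 7.25 and 2.76 FPKM in JNK_KO, where the groups did not overlap. Hist1h4d was at 0.607 and 2.58 FPKM against 4.42 and 0.764 FPKM, and Hist1h4h at 1.02 and 1.54 against 2.67 and 0.831 FPKM. In both of these JNK_KO replicate 3 was low, so the groups overlapped. H4 genes are known to encode the same protein, but this does not make their coding sequences the same. Stretches of read length that also occurred in another gene made up 1.63% (Hist2h4) to 90.1% (Hist1h4m) of an H4 model. Where along their length the H4 transcripts differ was not tested.

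Of the smaller clusters, Hist2 summed to 2.31 and 1.64 FPKM in JNK_WT and to 8.71 and 2.51 FPKM in JNK_KO. Hist2h2bb alone made up 5.03 of the 8.71 FPKM in JNK_KO replicate 1. Hist2h2ac was at 0.178, 0.114, 0.736 and 0.208 FPKM, and Hist2h3b, Hist2h3c1, Hist2h3c2 and Hist2h4 lay between 0.0472 and 0.547 FPKM, each highest in JNK_KO replicate 1. Hist2h2ab did not exceed 0.0670 FPKM and Hist2h2aa2 did not exceed 0.0855 FPKM. In the Hist3 cluster, Hist3h2ba was at 0.7495, 0.402, 0.431 and 0.273 FPKM and the pseudogene Hist3h2bb-ps at 0.0686 FPKM in JNK_WT replicate 1 alone. The Hist4 gene, Hist4h4, was at 0.144, 0.119, 0.245 and 0.131 FPKM.

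The genotype comparison asked whether JNK loss went with a different level of these genes. A gene was tested if 2 or more libraries had it at 1 FPKM or higher, and the scale was log2(FPKM + 1), which understates the change of low genes. Just 10 of 70 members passed this filter, of 12998 genes in all: Hist1h1c, Hist1h2bc, Hist1h2bg, Hist1h4c, Hist1h4d, Hist1h4f, Hist1h4h, Hist1h4i, Hist2h2be and Hist3h2a. By limma with Benjamini-Hochberg adjustment over all tested genes, 0 of the 10 members were called at an adjusted p under 0.05 with a log2 difference over 0.75, and 0 had an unadjusted p under 0.05. Over all tested genes these shares were 0.00% and 7.63%. A log2 difference over 0.75 was seen in 3 of 10 members toward JNK_KO (9.25% of tested genes) and in 0 toward JNK_WT (6.43%). Hist1h1c had the largest difference, 1.08 ± 0.52 (SE, log2, limma adjusted p = 0.781), followed by Hist1h4i at 1.01 ± 0.50 (limma adjusted p = 0.793) and Hist1h2bc at 0.81 ± 0.62 (limma adjusted p = 0.933). The 7 others lay between -0.21 (Hist1h2bg) and 0.43 (Hist2h2be), with limma adjusted p of at least 0.933.

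The median log2 difference of the 10 was 0.38, beside 0.01 over all genes tested. The groups did not overlap for 4 of the 10 (Hist1h1c, Hist1h4i, Hist2h2be and Hist3h2a), all higher in JNK_KO, where 18.3% of all tested genes were so, and none was lower throughout, where 16.7% of tested genes were. Without the filter, 12 of 70 members were higher in both JNK_KO libraries, beside 4634 of 38713 genes (12.0%), and 0 were lower, beside 3504 (9.05%). A gene at 0 throughout cannot be counted either way. Just 25135 of the 38713 genes were above 0 in a library, against 65 of the 70 members, so these shares are not on a like footing. Among genes above 0, 12 of 65 members and 4634 of 25135 genes were higher in both JNK_KO libraries, which are close shares. Lower were 0 of 65 members and 3504 of 25135 genes. Without JNK_KO replicate 1 the median difference was 0.18, the same 4 genes had JNK_KO replicate 3 above both JNK_WT libraries (background 31.9%), 2 genes, Hist1h4f and Hist1h4h, had it below (29.1%), and Hist1h4c, Hist1h4d, Hist1h4f and Hist1h4h turned to between -0.44 and -0.08. Without JNK_KO replicate 3 the median was 0.79 and 9 of 10 genes had JNK_KO replicate 1 above both JNK_WT libraries (background 32.9%), with 0 below (31.1%). Hist1h2bg, Hist1h4c, Hist1h4d and Hist1h4f passed the filter with JNK_KO replicate 1 as 1 of just 2 libraries at 1 FPKM or more. The medians and the counts that include JNK_KO replicate 1 were thus partly set by the filter. Hist1h2bc rested on another line, as leaving out JNK_WT replicate 2 gave -0.03 and leaving out JNK_WT replicate 1 gave 1.66.

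**Figure D3:**
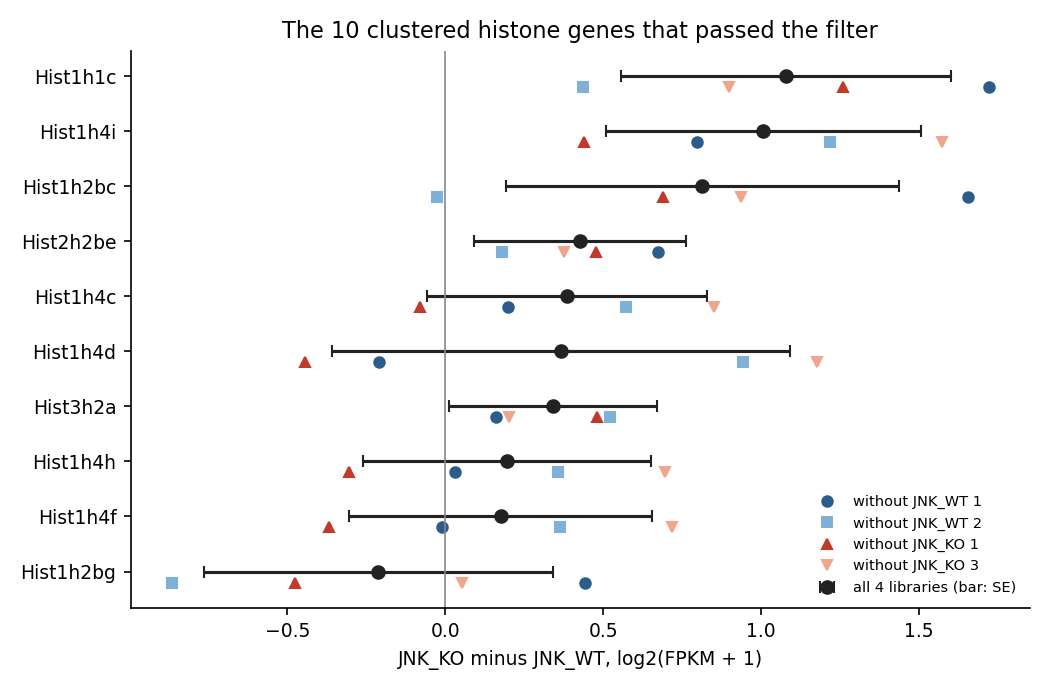
Difference JNK_KO minus JNK_WT on log2(FPKM + 1) for the 10 clustered histone genes that passed the filter, with all 4 libraries (black, bars are the SE from limma) and with 1 library left out (coloured). The H4 genes other than Hist1h4i cross 0 without JNK_KO replicate 1, and Hist1h1c ranges from 0.44 to 1.72.

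The gap between the JNK_KO lines was compared by the form of the gene model. The 15 members above 0 in both JNK_KO libraries whose longest model ends near a poly(A) signal had a median ratio of JNK_KO replicate 1 to replicate 3 of 1.88, and the 47 without such a signal had 4.29. Models over 1000 bases (17 genes) had a median of 1.98 and shorter ones (45 genes) 3.95. Hist1h1c, Hist2h2be and Hist3h2a, which end near a signal, were all higher in JNK_KO replicate 3, while Hist1h4i and Hist1h4h, which also do, were higher in JNK_KO replicate 1. How often JNK_KO replicate 1 was the highest library was close between the forms, in 11 of 15 members with a signal and 43 of 50 without, and in 14 of 17 long models and 40 of 48 shorter ones. These values are a description over genes of the same libraries.

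**Figure D4:**
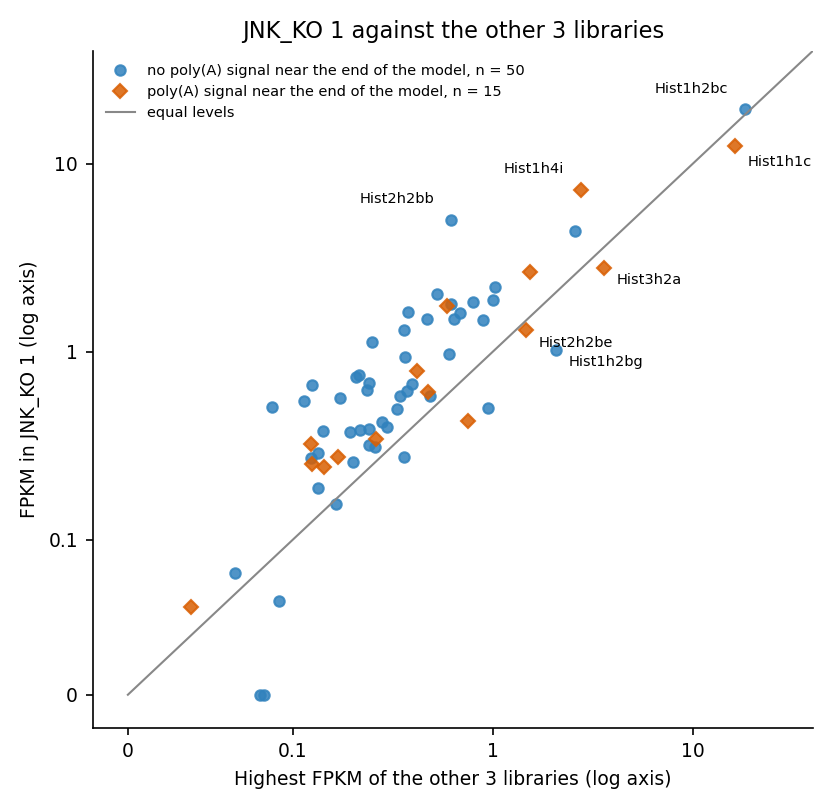
FPKM in JNK_KO replicate 1 against the highest FPKM of the other 3 libraries (both axes log, values of 0 drawn at the lower end) for the 65 clustered histone genes above 0 in any library, by whether the longest model ends near a poly(A) signal. Most points lie above the line of equal levels, and Hist1h1c, Hist3h2a, Hist2h2be and Hist1h2bg are among those below it.

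Sequence shared with other genes limits single-gene values. Over the 40-base length of the reads, a median of 58.6% of the positions of a member's longest model also occurred in another gene, and 41 of 70 members had at least 50% shared. This was highest for H2A (median 77.4%) and lowest for H1 (1.96%). Both strands were searched, and predicted genes annotated over the same place as a member were counted. The shares are therefore not a measure of sharing among histone copies alone. Hist2h2aa1, Hist2h2aa2, Hist2h2bb, Hist2h3b and Hist2h3c1 were shared over their whole length, but each also overlaps a predicted gene at its own place. In the authors' estimate reads could be divided among copies or with the overlapping gene, so these 5 values are uncertain. The leading genes were less affected, with 9.80% shared in Hist1h1c, 0.775% in Hist2h2be, 12.8% in Hist1h4d, 31.8% in Hist1h4i and 33.1% in Hist1h2bc.

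Other genes near the Hist1 members were compared on the same ratio. Within the Hist1 span on chromosome 13, 8 of 146 genes other than histones passed the filter. Their median ratio of JNK_KO replicate 1 to replicate 3 was 1.03. Of the 8, 2 were highest in JNK_KO replicate 1, beside 24.8% of tested genes. Among the 8, Prss16 was at 8.79 FPKM in JNK_KO replicate 1 and 2.82 FPKM in replicate 3, but at 15.6 FPKM in JNK_WT replicate 2. The 8 Hist1 members that passed the same filter had a median ratio of 2.92 (0.764 to 5.79), and the 51 Hist1 members above 0 in both libraries one of 3.90. Of these 8 members, Hist1h2bg, Hist1h4c, Hist1h4d and Hist1h4f passed with JNK_KO replicate 1 as 1 of just 2 libraries at 1 FPKM or more. They were below 1 FPKM in JNK_KO replicate 3, so a ratio above 1 was set for them by the filter. No other gene within the Hist2, Hist3 or Hist4 spans passed the filter.

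A list of RNAs known for lacking a poly(A) tail was also highest in JNK_KO replicate 1. The sum of the 70 histone genes was lowest in JNK_WT replicate 2, and that of this list in JNK_KO replicate 3. Without Hist1h1c and Hist1h2bc, the histone sum was next highest in JNK_WT replicate 2 (27.4 FPKM), as was that of the list. This histone sum was lower in JNK_KO replicate 3 (21.1 FPKM) and JNK_WT replicate 1 (19.2 FPKM). The 8 listed RNAs summed to 122 and 263 FPKM in JNK_WT and to 399 and 53.4 FPKM in JNK_KO. Of these, 6 of the 8 were highest in JNK_KO replicate 1, beside 27.7% of all genes above 0. Rmrp, the RNA of RNase MRP, was at 33.5, 103, 129 and 26.0 FPKM in the order used above. Rpph1, the RNA of RNase P, was at 29.5, 102, 114 and 10.03 FPKM and Rn7sk, which holds the elongation factor P-TEFb inactive, at 18.2, 29.3, 89.3 and 14.8 FPKM. The Y RNAs Rny1 and Rny3 were highest in JNK_KO replicate 1 at 26.0 and 39.2 FPKM and listed at 0 in JNK_KO replicate 3. Terc, the telomerase RNA, was at 1.12 FPKM in JNK_KO replicate 1 and 0.546 to 0.948 FPKM elsewhere, Rnu11 was at 1.67 FPKM in JNK_KO replicate 3 alone and Rnu12 was listed at 0. By limma 0 of the 5 that passed the filter were called, with a median log2 difference of -0.65. The part of these RNAs, or of how the libraries were made, in the histone result was not tested.

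Genes of S phase were also higher in JNK_KO replicate 1 than in replicate 3, by a smaller factor. The 30 listed genes in the table summed to 1118 and 961 FPKM in JNK_WT and to 1229 and 868 FPKM in JNK_KO. Of these, 19 of 30 were highest in JNK_KO replicate 1, beside 24.8% of tested genes. The median ratio of JNK_KO replicate 1 to replicate 3 was 1.46, beside 0.989 over tested genes above 0 in both. The ratio was above 1 for 27 of 30, beside 48.8% of those tested genes. By limma 0 were called between genotypes in either direction, and the median log2 difference was -0.02. Ccne2, which encodes cyclin E2, was at 6.11 and 6.48 FPKM in JNK_WT and 19.99 and 9.25 FPKM in JNK_KO, and Mcm2, of the replicative helicase, at 73.5 and 52.2 against 41.5 and 28.7 FPKM. The groups did not overlap for either, with limma adjusted p of 0.722 for Ccne2 and 0.665 for Mcm2. Both were chosen for their large difference, and in the whole list 5 of 30 were higher and 3 lower without overlap, beside the same 18.3% and 16.7% of tested genes. Ccne1, of cyclin E1, was at 32.9 and 10.3 against 16.7 and 10.2 FPKM. The most abundant of the list were the helicase subunit gene Mcm7 (67.5 to 116 FPKM), the thymidine kinase gene Tk1 (66.4 to 97.7 FPKM) and Hells, encoding a chromatin remodeler (42.5 to 106 FPKM), each highest in JNK_KO replicate 1. The part of the cell cycle in the histone result was not tested.

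**Figure D5:**
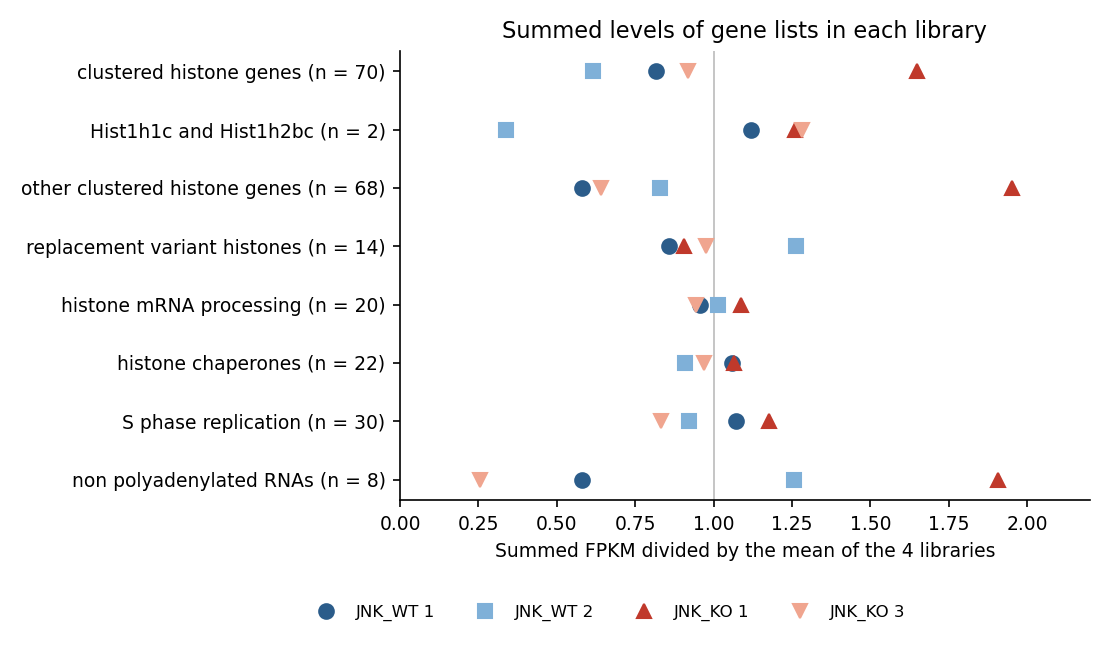
Summed FPKM of each gene list in each library, divided by the mean of the 4 libraries (linear axis), for the clustered histone genes, their 2 leading genes, the rest, and 5 other lists. The histone genes other than Hist1h1c and Hist1h2bc stand at 1.95 in JNK_KO replicate 1 and the RNAs without a poly(A) tail at 1.91, while the histone mRNA processing list stays between 0.943 and 1.09.

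Factors that make and process histone mRNA came next. The 20 listed genes summed to 394 and 418 FPKM in JNK_WT and to 449 and 388 FPKM in JNK_KO, and by limma 0 of the 19 tested were called (median log2 difference 0.13). Slbp, which encodes the stem-loop binding protein, was at 48.6 and 53.2 FPKM in JNK_WT and 46.3 and 45.5 FPKM in JNK_KO, a log2 difference of -0.14 ± 0.22 (limma adjusted p = 0.997). Sympk, the scaffold of the cleavage complex, was at 51.0 and 49.7 against 42.6 and 38.7 FPKM, and Ncbp2, of the cap-binding complex, at 29.0 and 35.9 against 46.2 and 36.9 FPKM. The largest differences were those of Zcchc11, a uridylyltransferase (7.49 and 8.51 against 19.58 and 8.64 FPKM), of Ncbp1, the partner of Ncbp2 (17.5 and 34.2 against 41.2 and 36.0 FPKM), and of Casp8ap2, needed for histone transcription (3.97 and 7.94 against 8.95 and 7.64 FPKM). JNK_KO replicate 1 was the highest library for 9 of the 20 (27.7% of all genes above 0), among them Zcchc11, Ncbp1, Ncbp2 and Casp8ap2.

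Histone chaperones, which carry histones to DNA, summed to 2031 and 1742 FPKM in JNK_WT and to 2046 and 1859 FPKM in JNK_KO. By limma 0 of 22 were called and the median log2 difference was 0.10. JNK_KO replicate 1 was the highest library for 6 of 22, beside 24.8% of tested genes. Hjurp, the chaperone of centromeric CENP-A, was at 36.8 and 34.2 FPKM in JNK_WT and 68.5 and 77.4 FPKM in JNK_KO, a log2 difference of 1.02 ± 0.22 (limma unadjusted p = 0.00797, adjusted p = 0.378). Ipo4, which imports H3 and H4, was at 33.9 and 44.7 against 97.4 and 62.0 FPKM (limma adjusted p = 0.581), and Asf1b, which passes on H3 and H4 pairs, at 21.1 and 18.4 against 41.0 and 27.8 FPKM (limma adjusted p = 0.684). For these 3, chosen for the largest differences, the groups did not overlap. In the whole list 6 of 22 were higher and 1 lower without overlap, beside 18.3% and 16.7% of all tested genes. The abundant chaperone genes Npm1 (769 to 855 FPKM), Rbbp4 (166 to 237 FPKM) and Rbbp7 (128 to 217 FPKM) had log2 differences between -0.11 and 0.19.

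Replacement and variant histones, whose genes lie outside the clusters, were far more abundant. The 14 listed genes summed to 1469 and 2161 FPKM in JNK_WT and to 1547 and 1668 FPKM in JNK_KO, and by limma 0 of the 10 tested were called (median log2 difference 0.11). H3f3b was at 570 and 1047 FPKM against 458 and 545 FPKM, and H3f3a, which encodes the same H3.3 protein, at 235 and 277 against 280 and 340 FPKM. H2afz, for H2A.Z, lay between 284 and 353 FPKM. The linker histone genes H1f0 (52.9 and 78.2 against 91.6 and 130 FPKM) and H1fx (3.58 and 3.69 against 14.1 and 5.29 FPKM) were higher in both JNK_KO libraries, with log2 differences of 0.75 ± 0.32 and 1.07 ± 0.51 that did not pass (limma adjusted p = 0.720 and 0.772). H1f0, H1fx and H3f3b were chosen for their large differences, and H3f3b (-0.63) was lower in both JNK_KO libraries. In the whole list 4 of 10 tested genes were higher and 1 lower without overlap, beside 18.3% and 16.7% of all tested genes. H1f0 shared with Hist1h1c its highest value in JNK_KO replicate 3, and H1fx was highest in JNK_KO replicate 1.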

How the data were processed

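Libraries were prepared with an Illumina TruSeq kit from RNeasy-purified RNA of 4 cell lines cultured in serum-containing medium and sequenced as single-end 40-base reads. Strandedness and the gene annotation are not given in the sources used here. Per the labels and the methods, the authors trimmed and subsampled reads, aligned them to GRCm38 with TopHat2 2.0.14 and Bowtie2, and the deposited FPKM came from Cufflinks 2.2.1 (versions from the submitters' processing notes), with no pooling of replicates. Of 38741 rows, 27 with symbols turned into dates and 1 without values were left out.

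Genes with FPKM of at least 1 in at least 2 libraries were fitted with limma 3.58.1 (R 4.3.3, eBayes with intensity trend, two-sided) on log2(FPKM + 1), JNK_KO minus JNK_WT, with Benjamini-Hochberg adjustment over all genes tested, and called at an adjusted p under 0.05 and a log2 difference over 0.75. FPKM are not counts, so no count model was used. The fit was tested on simulated data. Labels do not say that lines of a group share more than a genotype, so p-values measure the spread between these lines. Alternative pseudocounts, filters, scalings and fits without 1 library were run. Gene positions and transcripts were those of GENCODE M21, matched by symbol for 70 of 70 members; RefSeq promoters were matched by name or synonym for 61 members and kept for the 59 whose start lay within 300 bases of the M21 start.

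The members and the gene lists were chosen with earlier results of these data known. Named genes were the 3 members with the highest mean of each histone type, the 10 tested members, all members of the Hist2, Hist3 and Hist4 clusters, the 3 germ cell genes, Mapk8, Mapk9 and Trp53, and in each list of pathway genes the 3 with the highest mean and the 3 with the largest difference. Others named were chosen after their values were seen.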

Additional observations from a re-analysis of the deposited data

How the results depend on the processing

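No paired analysis was possible because replicate 1 is the one number that JNK_WT and JNK_KO have in common. No member was called under any alternative, including an adjusted p under 0.1, the fit without an intensity trend and the robust fit. The median log2 difference of the tested members (0.38) stayed above 0, with 0.12 under quantile normalization, 0.58 with a pseudocount of 0.1, 0.16 without the filter and 0.95 when only means of 5 FPKM or more were kept, which left 2 members, and 0.18 to 0.79 without 1 replicate. The count of tested members higher in both JNK_KO libraries (4) was 1 under that stricter filter, 12 of 70 without the filter, 2 under quantile normalization and 4 to 9 without 1 replicate, and that of members lower in both (0) was 0 to 2 without 1 replicate. The difference of the summed FPKM (33.4) was 11.97 to 54.7 without 1 replicate. Under quantile normalization Hist1h4f (-0.17) and Hist1h4h (-0.059) changed direction, as did Rbbp4 (-0.020) when FPKM were scaled to a common sum. The cause was not tested. Of 360 values of 41 named genes under settings that keep all libraries, 357 kept their direction, and of 164 without 1 replicate, 138 did. Without 1 replicate the log2 difference ranged from -0.027 to 1.66 for Hist1h2bc, -0.87 to 0.44 for Hist1h2bg, -0.079 to 0.85 for Hist1h4c, -0.44 to 1.18 for Hist1h4d, -0.37 to 0.72 for Hist1h4f, -0.31 to 0.70 for Hist1h4h, -0.24 to 0.27 for Rbbp4, -0.19 to 0.56 for Rbbp7, -0.51 to 0.26 for Mcm7, -0.31 to 0.24 for Tk1, -0.19 to 0.93 for Hells, -1.27 to 0.32 for Ccne1, -1.15 to 1.12 for Rmrp, -2.34 to 1.04 for Rpph1, -0.61 to 1.90 for Rn7sk, -4.71 to 0.62 for Rny3 and -3.17 to 1.59 for Rny1. In fits without 1 replicate the lone library is assumed to vary like the other group. Most members (60 of 70) lay under the filter on low FPKM, and the values are estimates without a stated error.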
